A study of Homo sapiens with 6 samples.

Results

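Isoforms that were absent from the annotation, were assigned to an annotated protein-coding gene and were predicted to be productive made up 1514 of the 13208 isoforms in the table. They were chosen by 4 properties of their table row: an identifier that is not an annotated transcript, an annotated gene, a protein-coding biotype and the productivity class PRO, which means a start codon, a stop codon and no premature stop. They came from 1016 genes. In the same table, 5313 annotated isoforms of coding genes were productive, and the other new isoforms of coding genes were 921 with a premature stop, 476 with no start codon and 62 with no stop codon. RNA came from K562, a human chronic myeloid leukaemia cell line, as whole cells (WC) and as the extracellular vesicles (EVs) these cells release, with 3 libraries of each. Both groups were genotype WT and untreated. For EV collection, cells were grown in RPMI medium with serum depleted of vesicles. Per the study's methods, the medium for EVs and samples of the cells were taken at the same time. Long-read sequencing of cDNA primed at poly(A) tails and amplified by PCR gave 2480560 to 3178211 counted reads in WC and 560157 to 881338 in EV libraries, and the genes of the new isoforms held 24.5 to 25.4% of the counts. All 12 marker genes of K562 had reads, though HBE1 had none in WC 2, EV 2 and EV 3. Levels are in CPM, counts scaled to library totals adjusted by TMM, which balances libraries on most genes. The 12 summed to 498.2 to 574.7 CPM in WC and 705.5 to 764.7 in EVs. By library totals alone the sums were 635.6 to 674.5 in WC and 544.5 to 610.4 in EVs, the opposite order. The 12 genes did not move together. By TMM, HBG2 was at 8.14 to 15.1 CPM in WC and 189.3 to 264.8 in EVs. TFRC was at 132.6 to 155 in WC and 61.6 to 70.0 in EVs. Of 8 marker genes of other cell types, 6 had reads, summing to 66.3 to 102.4 CPM in WC and 26.1 to 54.8 in EVs, nearly all from EPCAM of epithelial cells (58.1 to 95.7 and 23.3 to 48.6), and MS4A1 of B cells and ALB of hepatocytes had none.

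A gene gives several isoforms through other first exons, exons that are skipped or included, shifted splice donors and acceptors, introns left in, and other poly(A) sites. An isoform is productive when its reading frame ends at a stop codon that does not trigger nonsense-mediated decay, the pathway that removes mRNAs with an early stop. A long read can show the whole chain of exons of 1 molecule, but it can also begin inside the RNA where the cDNA or the RNA was broken.

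The splice junctions below lie in the predicted coding sequence and join annotated splice sites of 1 gene in a pair that the annotation does not hold. They are the 6 with the highest summed mean count that lie in the coding sequence and pass over an annotated exon, at most 1 per gene. Against the annotated isoform that shares most introns with it, the RPL5 isoform has another acceptor and no skipped exon. Its spliced length differs by -6 nt. The last 15 bases of the upstream exon are in lower case and the first 15 of the downstream exon in capitals, read on the strand of the gene from the GRCh38 genome.
FTL: ttccaggacatcaagCTCTGTGACTTCCTG
RPS10: ggcctcggcctaaagCTGGTGCCGACAAGA
PRDX6: cttgcctggagcaagGATGGGGATAGTGTG
RPS16: tggcccagatttatgATGTGGATGAGGCTT
RPL24: aggaccgacgggaagGAAGAAATTCAAAAG
RPL5: gtaactccagacatgGAGATGTATAAGAAA
The introns are chr19:48965917-48966582 (plus strand) for FTL, chr6:34418425-34424668 (minus) for RPS10, chr1:173481483-173487734 (plus) for PRDX6, chr19:39433419-39433664 (minus) for RPS16, chr3:101682908-101686481 (minus) for RPL24 and chr1:92837634-92840556 (plus) for RPL5. FTL is the light chain of ferritin, the iron store, PRDX6 is a peroxiredoxin that reduces peroxides, and the others encode ribosomal proteins. All 6 introns have the GT-AG ends of most introns, and none of the 6 strings of 30 bases occurs in an annotated transcript of GENCODE 44.

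In the authors' mean over all 6 libraries, which is a count normalised for library size, the new isoforms were mostly low. The mean ran from 2.00 to 725, with a median of 8.33 and quartiles of 5.23 and 15.8, and 348 isoforms had a mean under 5. The 1387 annotated isoforms of the same genes that lie on primary chromosomes had a median of 21.8. A mean of at least 10 was reached by 630 new isoforms and a mean of at least 100 by 48. A new isoform held a median of 12.4% of the summed mean of its gene's isoforms. Among the 1197 with an annotated isoform of their gene in the table, this median was 8.49%. In 349 cases the new isoform was the highest of its gene, and in 228 of those it was the only one the table lists. The table gives no count per library, and the authors' own comparison in it was not used, so new isoforms were not tested between WC and EVs here.

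Each new isoform was compared with the annotated isoform of its gene in the table that shares the most introns with it, called the comparator here. Ties went to the isoform with the highest mean. Where GENCODE 44 transcripts served as comparators instead, ties went to the first identifier. Of the 1514, 1197 had a comparator and 317 came from genes with no annotated isoform in the table. New isoforms had a median of 1 exon fewer: 624 (52.1%) had fewer exons, 422 the same number and 151 more. The median was 0 among isoforms with a mean of at least 10 and with 1 isoform per gene. Exactly 1 exon fewer was found in 529. Their spliced length differed by a median of -28 nt, with quartiles of -84 and 103 nt, and 745 were shorter while 449 were longer. This median was -18 nt at a mean of at least 10, -16 nt with 1 isoform per gene and -95 nt against GENCODE 44 transcripts. The tails were unequal, since 112 were over 500 nt longer and 33 over 500 nt shorter. Over all 1514, the median was 7 exons (range 1 to 56) and 1437 nt of spliced length.

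**Figure D1:**
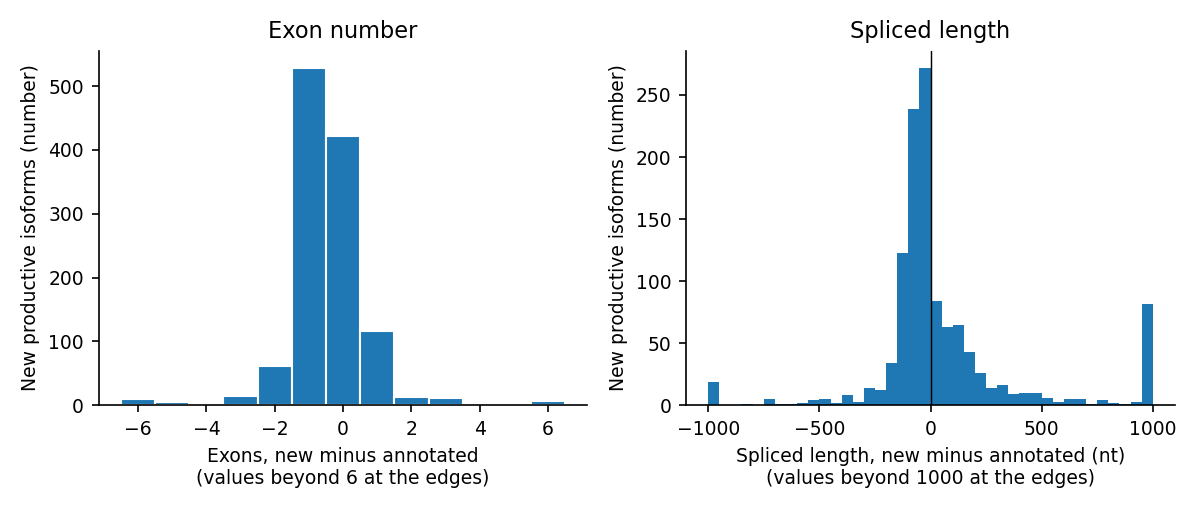
Difference in exon number (left) and in spliced length in nt (right) between each of 1197 new productive isoforms and its annotated comparator, with the number of isoforms on the vertical axes and values past the ends of an axis gathered in its last bar. The tallest bar at left is 1 exon fewer (529 isoforms), and at right 745 isoforms lie below 0, with a median over all of -28 nt.

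A skipped exon was the most frequent difference, in 472 of the 1197 isoforms (39.4%) from 359 genes, and in 434 of them it was the only one. Next came another acceptor (180), another donor (147), another first exon (130) and a start in a later exon of the comparator (112). An added internal exon was found in 76, a retained intron in 44 and another last exon in 27. Only 102 isoforms combined 2 or more kinds. Isoforms with a skipped exon were shorter by a median of 76 nt in spliced length (median difference -76), and those with a retained intron were longer by a median of 310 nt. Another first exon left the number of exons the same in the median and added 72.5 nt.

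**Figure D2:**
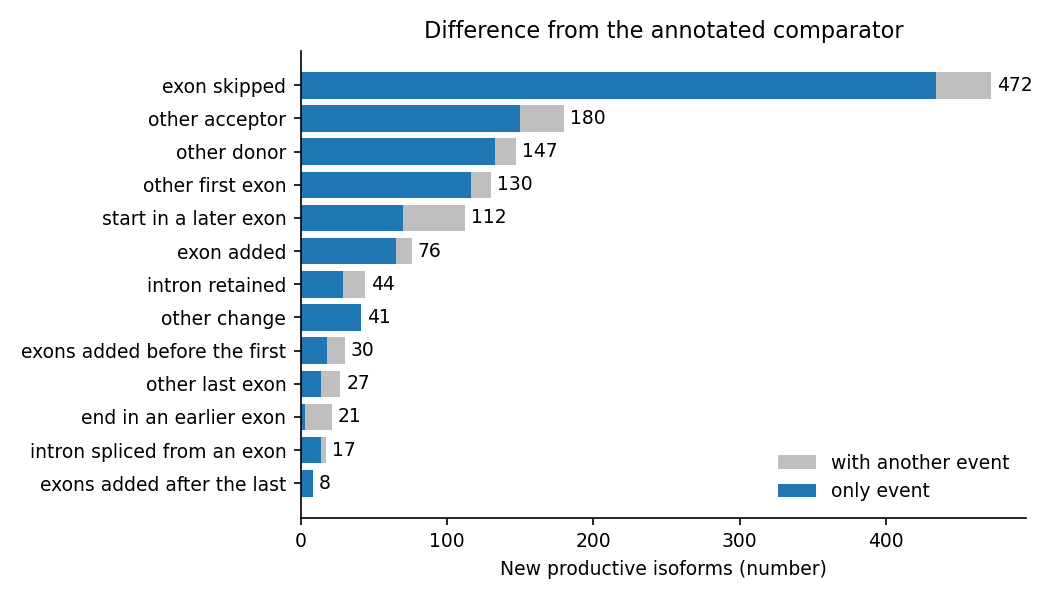
Number of new productive isoforms (horizontal axis) with each kind of difference from the annotated comparator, with isoforms in which it was the only kind in blue and those with a further kind in grey. Skipped exons (472) outnumber every other kind, and the category "other change" (41) holds changes outside the named kinds.

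The ends of the new isoforms were mostly those of the comparator. The 5′ end was the same to the base in 802 of 1197 (67.0%) and the 3′ end in 945 (78.9%), and both ends were the same in 637. Within 50 nt, 74.1% of 5′ ends matched (95% exact binomial interval 71.5 to 76.6, counting error only) and 82.8% of 3′ ends (80.5 to 84.9). Against the transcripts of GENCODE 44, whose ends were not built from these reads and among which ties went by identifier, the shares were 60.2% and 52.6%. Among the remaining 5′ ends, 191 lay downstream of the comparator's start and 119 upstream. Among the remaining 3′ ends, 145 lay downstream and 61 upstream. FLAIR, the tool the authors used to build isoforms, groups reads into shared ends, so ends of isoforms of 1 gene are not independent of each other.

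**Figure D3:**
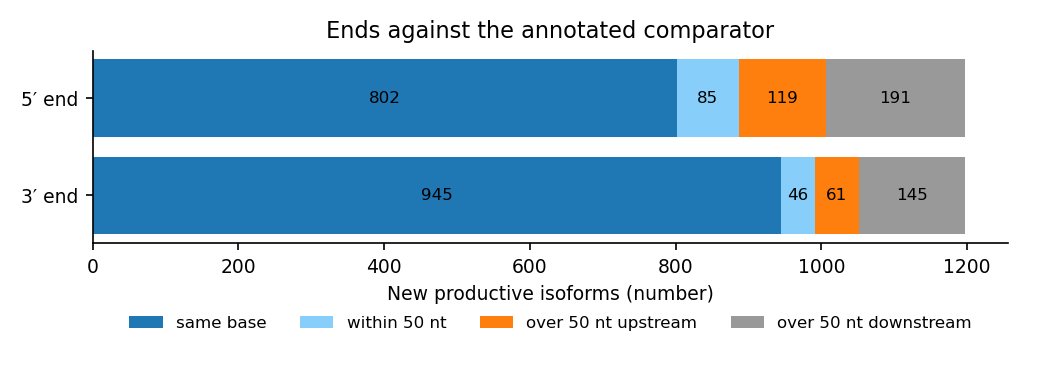
Number of new productive isoforms (horizontal axis) whose 5′ end (upper bar) or 3′ end (lower bar) lies at the same base as, within 50 nt of, or over 50 nt upstream or downstream of that of the annotated comparator. Of 1197 isoforms, 802 have the same 5′ end and 945 the same 3′ end.

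The letters that mark poly(A) sites were found before most 3′ ends. AATAAA or ATTAAA, read on the strand of the gene, stood in the last 40 bases of 83.6% of 1484 new isoforms on primary chromosomes and of 86.4% of the 1387 annotated isoforms of their genes. AATAAA alone stood in 70.2% and 71.6%. A genome stretch rich in A, at which a poly(A) primer can bind inside an RNA, was counted where at least 12 of the 20 bases after the end were A. It followed 35 new isoforms (2.36%) and 26 annotated ones (1.87%). Among the 21 new isoforms that end in an earlier exon than their comparator, 10 had such a hexamer and 3 had the A-rich stretch. These letters are a description of the window and do not show that a site was used.

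The predicted coding sequence often kept both of its ends while its inside changed. The start and the stop codon of the comparator were shared by 695 of 1197 new isoforms (58.1%). All new isoforms here were chosen as predicted productive, and 1168 of the 1197 comparators were productive too. Isoforms with a premature stop or no start codon were left out by that rule, so the share is partly fixed by it. Of the 1168 with a productive comparator, 266 (22.8%) had the same coding blocks, so that they differed in untranslated sequence only, and 429 shared the start and the stop but not the blocks. The coding length was shorter in 803, equal in 269 and longer in 96, with a median difference of -66 nt and quartiles of -150 and 0. It was below 50% of the comparator's in 69. Skipped exons rarely left the coding blocks as they were (14 of 462), while other first exons did so in 60 of 127 and starts in a later exon in 51 of 111. Over all 1514, the median coding length was 762 nt, and 13 isoforms had under 100 nt. Against every transcript of GENCODE 44, 594 of 1481 new isoforms had the coding blocks of an annotated transcript and 887 had not.

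Most introns of the new isoforms were annotated. Together the isoforms held 8782 different introns, of which 8144 (92.7%) are in GENCODE 44 and 638 are not. Of those 638, 593 pair annotated splice sites of 1 gene, 35 join annotated sites of 2 genes and 10 use a site that is not annotated. GT-AG ends were found in 99.0% of the annotated introns, in 97.3% of the 593, in 35 of the 35 and in 2 of the 10. Of the 593 new pairs, 526 pass over a whole annotated exon. Of 1457 new isoforms with introns and an annotated gene, 808 (55.5%) had introns annotated in any gene only, and 649 had at least 1 that is not annotated. Against the annotated isoforms of the table alone, 1060 of 1197 had at least 1 intron that no annotated isoform of their gene in the table has, and against the transcripts of their gene in GENCODE 44 the count was 667 of 1481, with 606 more that combine such introns in another way.

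FTL, PRDX6 and RPL24 show a skipped exon inside the coding sequence. The new FTL isoform had 3 exons where the comparator had 4, the same ends and a coding length of 402 nt against 528, with a mean of 315.6 against 6203 for the comparator. The new PRDX6 isoform left out 2 exons, had a coding length of 381 nt against 675 and was 506 nt longer in all. The new RPL24 isoform left out 1 exon and was 775 nt longer, with a coding length of 363 nt against 474. Both longer isoforms reached further at the 3′ end. The new isoform of ELOVL5, an elongase of long polyunsaturated fatty acids, skipped 1 exon of 78 nt, kept both ends and both coding ends, and had a mean of 6.48 against 33.6.

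**Figure D4:**
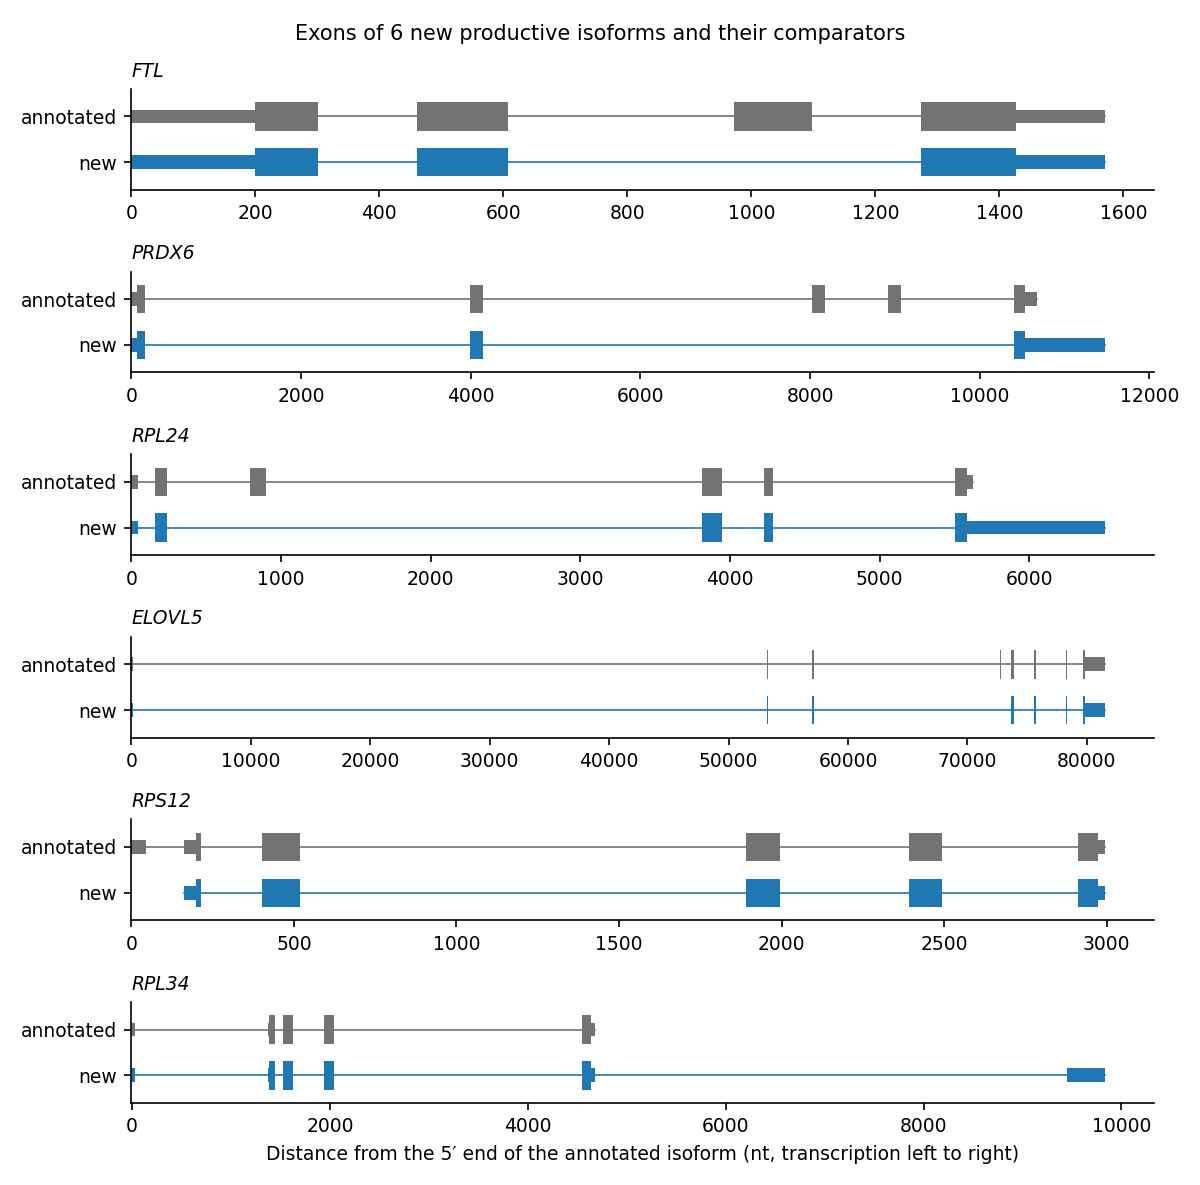
Exons of 6 new productive isoforms (blue) and their annotated comparators (grey), with the distance from the comparator's 5′ end in nt on the horizontal axis, tall boxes for predicted coding sequence, low boxes for untranslated exon sequence and lines for introns. FTL, PRDX6, RPL24 and ELOVL5 lack internal exons, RPS12 begins in a later exon, and RPL34 has 1 exon more at its 3′ end.

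The 10 genes with the highest new isoform were H2BC12, RPS3, PFN1, RPL7, RPS20, RPL34, FTL, RPS12, TPT1 and RPL13A, of which 6 encode ribosomal proteins. H2BC12, a histone H2B, had the highest mean (724.6) as a single exon, and it and the isoform of PFN1, which binds actin (518.5), were the only isoforms of their genes in the table. The new RPS3 isoform (mean 586.5, 15.4% of the gene) had another first exon and a coding length of 354 nt against 732. RPS12 began in a later exon, was 44 nt shorter and kept the same coding blocks (mean 313.1 against 6894). RPL34 gained an exon after its last one, was 397 nt longer and kept the same coding blocks, and its mean of 357.9 was above the comparator's 291.3. RPS20 also exceeded its comparator (374.1 against 160.9). The new isoform of TPT1, a translationally controlled protein, had another acceptor, a 3′ end 304 nt further on and a mean of 308.5. Among all 1197, 112 new isoforms had a mean at or above that of their comparator.

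Ribosomal protein genes also had the most new isoforms per gene. RPL13A had 12, RPL17 had 9 and RPS3 had 8, while 740 of the 1016 genes had 1 and 25 genes had 5 or more. The 12 of RPL13A ran from 559 to 1114 nt with 6 coding lengths from 384 to 588 nt, and together held 40.7% of the gene's summed mean. The 9 of RPL17 had only 2 coding lengths, 525 and 555 nt, and held 43.1%. The 8 of RPS3 had 3 coding lengths from 354 to 696 nt and held 36.8%. In the BED file, whose score field runs from 0 to 60, 1324 new isoforms had a score of 60 and 69 a score of 10 or less. The cytosolic ribosomal protein genes held 24 of these 69.

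The 5 new isoforms of RPL10, a protein of the large ribosomal subunit, had means of 13.3 to 100.4 against 396.7 for their comparator. The highest skipped 1 exon and had a coding length of 492 nt against 645, and 2 others had that same coding length. One had 2 exons against 7 through retained introns, began 618 nt further upstream, was 2308 nt longer and had a coding length of 129 nt. HSPA9 had no new productive isoform in the table.

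Among isoforms with a mean of at least 10, the 3 with most exons fewer, the 3 with most exons more and the 3 that reached furthest at each end were the following. Over isoforms of any mean, the difference in exon number ran from -18 to 19. ATP6V0A2, a subunit of the vacuolar proton pump, had a new isoform with 5 exons against 20, a coding length of 138 nt against 2571 and a mean of 15.1. ALDH1A2, which makes retinoic acid, had one with 8 exons against 13, and the third was the isoform of RPL10 with 2 exons. PRIM1, a DNA primase subunit, had 3 with 6 or 7 exons more than the comparator. Each of the 3 had a 3′ end 19163 nt further downstream, at chr12:56712433, and a coding length of 648 nt. An intron in at least 1 of the 3 runs from a PRIM1 donor to a NACA acceptor. Of the exon bases of PRIM1, 19.1% lie in other genes, NACA among them. Whether the coding sequence predicted for the 3 is that of PRIM1 or of NACA was not tested. The largest 5′ extensions were in MRPS22 (338757 nt), ATP5PD (135987 nt) and PSMB2 (128452 nt), and the largest 3′ extensions in OR51B5 (87135 nt in 2 isoforms) and EEF1A1 (25152 nt). These distances are along the genome and include introns. Both isoforms of OR51B5 end at chr11:5253190. Of the exon bases of OR51B5, 5.32% lie in other genes, among them the globin genes HBE1 and HBG2. The 2 isoforms had predicted coding lengths of 444 and 279 nt. The new isoform with the HBG2 to HBG1 junction below also had 444 nt. Whether the 2 isoforms belong to OR51B5 alone was not tested.

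Junctions that join annotated sites of 2 genes included some whose letters also occur in annotated transcripts. The first 3 lines below are of that kind and the last 3 are not, written as before, with the gene that gives the donor first.
GAGE2A to GAGE1: attgggcctatgcggCCCGAGCAGTTCAGT
GAGE2E to GAGE12C: catctgcaggtcaagGGCCGAAGCCTGAAG
HBG2 to HBG1: agaaaccctgggaagGCTCCTGGTTGTCTA
SUMO2 to ATP5PD: gacacacctgcacagGATCCCAAAATGGCT
LSM10 to STK40: ttcccccaaaaaactGTCCCCGTCTGGGCA
COX8A to OTUB1: aagcttgggatcatgGGCTGTTGCCAAGGC
The introns lie at chrX:49590732-49600723 (plus), chrX:49342974-49536823 (plus), chr11:5249591-5254636 (minus), chr17:75042660-75174751 (minus), chr1:36358823-36393765 (minus) and chr11:63974795-63986360 (plus). Of the 35 such introns, 12 give 30 bases that also occur in an annotated transcript, as in GAGE (a family of cancer-testis antigens), HBG (fetal haemoglobin), GYPB and CT45. Of the 593 new pairs within 1 gene, 1 did. For those 12 the letters at the junction do not tell a junction between 2 genes from an annotated one. The new isoform joining SUMO2 to ATP5PD, a subunit of ATP synthase, had a mean of 104.1 and a predicted coding length of 720 nt against 486, and its 30 bases occur in no annotated transcript.

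The genes of the new isoforms were compared between EVs and WC with the deposited gene counts, which include every isoform of a gene. Of the 1016 genes, 880 passed the filter on low counts, and 233 were higher and 192 lower in EVs at an adjusted p under 0.05 (edgeR quasi-likelihood test, Benjamini-Hochberg over 8716 genes). These are 26.5% and 21.8% of the 880, beside 22.8% higher and 21.4% lower of all genes tested. The median log2 fold change was -0.0048 in the genes of new isoforms and -0.13 in all genes tested. In bulk RNA these values are shares of each library, and a gain of some RNAs cannot be told apart from a loss of others. With library totals in place of TMM scaling, 99 were higher and 500 lower, and the median of all genes moved to the lower side, so the split depends on the scaling.

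The authors' 2 measures of a gene did not always match, and this touches the comparison. Of 988 host genes found in GENCODE 44, 453 had no exon that overlaps another gene on either strand, 500 had up to 50% of their exon bases in another gene and 35 had more. Reads in an overlap may not be assigned to either gene by a counter of genes. Only the isoform mean is normalised for library size, so its ratio to the gene count also depends on the share of reads from EVs. In the 453 genes without overlap, the summed isoform mean was a median of 0.297 of the mean count of the gene, and in the 35 genes with over 50% of their exon bases in another gene it was 10.3 times the count. H2BC12, whose exons overlap no other gene, had an isoform mean of 724.6 but 5 to 21 counted reads in each library, and RPL17 had 1 read in WC replicate 1 and 0 in the other 5 libraries beside a summed isoform mean of 465.2. Among the 448 tested genes without overlap, 81 (18.1%) were higher and 116 (25.9%) lower in EVs. This split was made after the values were seen, and its part in the result was not tested.

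By TMM scaling, the genes of ribosomal proteins were higher in EVs almost throughout. Of 52 tested, 51 rose and 1 was not called, with a median log2 fold change of 1.00. Some rose by less, such as RPL5 at 0.43. Under library totals RPL41, RPS12 and RPL10 were at 0.425, 0.628 and 1.31. The count for all 52 under library totals was not taken, so it may depend on the scaling. RPS12 was at 4106, 3594 and 3513 CPM in WC and 8278, 9328 and 9812 in EVs, which do not overlap (log2 fold change 1.29 ± 0.12 SE, adjusted p = 2.36e-09, edgeR). RPL41, with 4 new isoforms, was at 4490 to 4919 CPM in WC and 7739 to 11298 in EVs. RPL10 was at 645.5, 490.1 and 460.7 CPM in WC and 2191, 1994 and 2030 in EVs (1.96 ± 0.14, adjusted p = 4.45e-11, edgeR). Of the exon bases of RPL10, 53.4% lie in another gene, and its summed isoform mean was 0.511 times its gene count. ELOVL5 was at 112.7 to 125.7 CPM in WC and 89.0 to 106.4 in EVs, and it did not pass (-0.35 ± 0.18, adjusted p = 0.128, edgeR), but did so without the filter on low counts and under library totals.

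The other groups had lower medians. Below, the calls of EEF1A1, MRPS36, PSMB1, HSP90AB1, HNRNPA1, BLVRB and UROD were lost without the filter on low counts, and their values turned to the lower side under library totals. UQCRH lost its call under library totals, and EEF1A1 was called lower there (adjusted p = 0.025, edgeR). Of 25 genes of translation factors, 12 rose and 1 fell, and EEF1A1, which brings tRNAs to the ribosome, rose by 0.33 ± 0.12 (adjusted p = 0.0315, edgeR), a call lost without any of 5 of the 6 libraries. Of 21 genes of the respiratory chain and ATP synthase, 8 rose and none fell, with UQCRH at 0.84 and ATP5MC3 at 0.26 (not called). Of 15 mitochondrial ribosomal protein genes 7 rose, among them MRPS36 at 0.47, and MRPL52 was at 0.16 (not called). Of 13 proteasome genes 5 rose, with PSMB1 at 0.58 and PSMA4 at -0.08 (not called). Of 14 chaperone genes 5 rose and 1 fell (HSP90AB1 0.51; HSPA8 0.17, not called). Of 25 splicing factor genes 11 rose and 1 fell, with HNRNPA1 at 0.45 and HNRNPC at -0.03 (not called). Of 8 erythroid and haem genes 4 rose and 1 fell, and BLVRB and UROD rose by 0.42 and 0.62. Glycolysis had 2 of 6 higher, with ENO1 at -0.07 and TPI1 at 0.17 (neither called). Solute carriers had 2 higher and 4 lower of 9: SLC25A5, which exchanges ADP and ATP, rose by 1.83 (13.2% of its exon bases lie in another gene, and its isoform mean was 2.95 times its gene count), and SLC25A3 was at -0.27 (not called). RAB GTPases had 2 of 6 higher, with RAB11A at 0.16 (not called). In ubiquitin conjugation, UBE2T was at -0.20 (not called). All genes tested had the background given above.

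The largest differences among genes at 20 CPM or more were the following. RAB13, a small GTPase, was at 3.78, 5.62 and 3.49 CPM in WC and 124.8, 180.4 and 180.4 in EVs, with no overlap (5.17 ± 0.25, adjusted p = 1.98e-14, edgeR). RPS3A was at 26.1 to 31.4 CPM in WC and 296.1 to 315.0 in EVs, RPL26 at 9.60 to 12.7 and 85.0 to 150.3, and ATP5PO, a subunit of ATP synthase, at 2.33 to 6.13 and 39.8 to 64.8. For these 4, the summed isoform mean was 4.59, 19.4, 53.0 and 23.1 times the mean gene count, against the median of 0.297 without overlap. Only the isoform mean is normalised for library size, so these ratios also depend on the share of reads from EVs. Of the exon bases of the 4 genes, 14.3 to 24.8% lie in another gene. CLEC2D, a lectin, was at 96.0, 134.2 and 22.8 CPM in EVs and 7.40 to 9.89 in WC, so 1 EV library lay far below the others, and 12.1% of its exon bases lie in another gene. In the other direction, GRN, the precursor of progranulin, was at 114.7, 114.4 and 87.5 CPM in WC and 8.23, 16.2 and 2.28 in EVs (-3.58 ± 0.33, adjusted p = 2.75e-09, edgeR), from 1 to 7 reads per EV library. ITM2B, a membrane protein, TCN1, which binds vitamin B12, and ECM1, a secreted matrix protein, fell by 3.16, 2.81 and 2.72 on the log2 scale. None of the 3 has exons that overlap another gene, but their EV libraries held only 2 to 8, 4 to 15 and 1 to 6 reads each. POLR2J3 was at 98.9 to 108.8 CPM in WC and 2.28 to 9.25 in EVs (-4.04 ± 0.32), from 1 to 5 reads per EV library. Since it has near-identical copies, with 31.5% of its exon bases in another gene, its counts are uncertain.

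**Figure D5:**
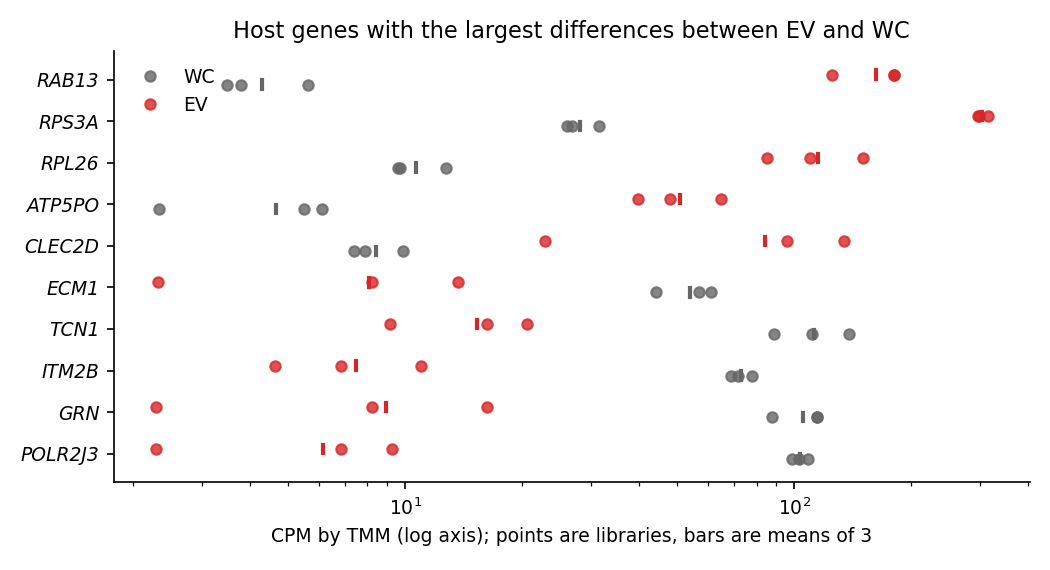
Level in CPM after TMM scaling (horizontal log axis) of the 10 host genes with the largest differences, with 1 point per library (WC in grey, EV in red) and a bar at the mean of 3. The groups do not overlap in any of the 10 genes, and CLEC2D has 1 EV library at 22.8 CPM.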

How the data were processed

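For genes, the authors deposited unnormalised counts of reads in each library, from minimap2 and featureCounts on hg38. The deposited isoform signal is the authors' DESeq2 mean of normalised counts from FLAIR over all 6 libraries, with no value per library; the fold changes and p-values in that table, and the authors' table of gene differences, were not used. The deposited score is the authors' BED score field. Members, gene lists and the rules for named isoforms and genes were chosen with earlier results of these data known. Named were the 10 highest isoforms (1 per gene), the 3 genes with most members, the 3 extremes of exon number and of each end at a mean of at least 10, the 5 highest and 5 lowest fold changes at 20 CPM or more, 2 genes in each of 12 lists, and RPL10, ELOVL5 and HSPA9. One named gene and the count of its list are not reported here.

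Structures were read from the BED file. On the minus strand the coding range lacked the start codon, which was added back. Annotation came from GENCODE 44, a later release than the authors', in which 1481 of 1514 isoforms had their gene. Symbols turned into dates (5 in the table) were restored from gene IDs. Structural values are descriptions with no test, and intervals cover counting error only. The gene comparison used edgeR 4.0.16 under R 4.3.3 (TMM scaling, expression filter, robust quasi-likelihood), on 68201 genes after 46 doubled IDs were reduced to 1 line. Junctions of 1 chromosome were left out when sequences were chosen for printing. The structural code was tested on made-up isoforms and the gene test on simulated counts. Replicate numbers pair WC and EV libraries per the study's methods, which loaded both on 1 flow cell. Deviations of same-numbered libraries correlated at 0.062, 0.024 and 0.0045. The study's methods describe the replicates as biological, with flasks of their own. Other software was DESeq2 1.42.0.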

Additional observations from a re-analysis of the deposited data

How the results depend on the processing

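Limits: the isoform table holds 1 mean per isoform, so no isoform was tested between EVs and WC, and EV libraries were shallower. With library totals only, 99 host genes were higher and 500 lower. Without an expression filter the counts were 159 and 236. With the replicate block they were 227 and 185, and among named genes EEF1A1 alone lost its call (adjusted p = 0.0744). DESeq2 gave 218 and 160. Leaving out 1 library gave 166 to 229 higher and 150 to 208 lower. Host genes without exon overlap, an alternative chosen after seeing the data, gave 81 and 116.

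The median difference in exon number was -1, and 0 with a mean of at least 10 or 1 isoform per gene. The median length difference of -28 nt became -95 with GENCODE transcripts as comparators, -18 with a mean of at least 10 and -16 with 1 isoform per gene. With GENCODE comparators, whose ends were not built from these reads, 60.2% of 5′ ends and 52.6% of 3′ ends lay within 50 nt, and 54.2% had only introns of annotated transcripts of their own gene, against 11.4% within the table. A tolerance of 20 nt gave 70.4% of 5′ ends, and 1 isoform per gene 79.7% of 3′ ends. The A-rich share was 1.62% at a mean of at least 10. The hexamer share was 70.2% for AATAAA alone and 81.1% with 1 isoform per gene.

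Under library totals these log2 fold changes turned to the lower side: EEF1A1 -0.32, ATP5MC3 -0.40, MRPS36 -0.19, MRPL52 -0.50, PSMB1 -0.072, TPI1 -0.47, HSP90AB1 -0.15, HSPA8 -0.48, HNRNPA1 -0.21, BLVRB -0.23, UROD -0.031 and RAB11A -0.50. Without a filter MRPL52 was at -0.056, TPI1 at -0.029, HSPA8 at -0.032 and RAB11A at -0.054. Leaving out 1 library changed the sign of values that were not called, with ranges of -0.0092 to 0.297 for MRPL52, -0.272 to 0.061 for PSMA4, -0.18 to 0.363 for TPI1 and -0.10 to 0.272 for HSPA8. MRPS36, HNRNPA1, BLVRB and UROD lost their calls without some single libraries, and 7 named genes without the filter (these 4, EEF1A1, PSMB1 and HSP90AB1). EEF1A1 also lost its call with DESeq2 (adjusted p = 0.1) and UQCRH under library totals (adjusted p = 0.128). ELOVL5 and SLC25A3 were called lower without the filter and under library totals, as were EIF1, PSMA4, ENO1, HNRNPC and UBE2T under library totals. ATP5MC3, MRPL52, HSPA8 and RAB11A were also called lower under library totals. So was EEF1A1 (adjusted p = 0.025, edgeR), which was called higher in the main fit. The cause was not tested.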
